A study of Mus musculus with 8 samples.

Results

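The Rab family is the largest branch of the Ras-like small GTPases. A Rab protein is a switch on the surface of a membrane: a guanine nucleotide exchange factor loads it with GTP, the loaded form binds effectors such as motors and tethers, and a GTPase-activating protein returns it to the GDP form, which the GDP dissociation inhibitor takes off the membrane. Each Rab works on particular compartments, so the set of Rabs a cell makes bears on how it sorts cargo between the endoplasmic reticulum, the Golgi, endosomes, lysosomes and the plasma membrane. In the developing cortex, migrating neurons use Rab-dependent endocytosis and recycling, and growing axons and presynaptic terminals use Rab-dependent exocytosis.

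The members were all mouse genes named Rab followed by a number and at most 1 letter. The reference table lists 59 of them, and 57 had at least 1 gene probe on the array, of 32524 genes with a probe in all. Those 57 genes had 80 probes. Rab36 and Rab44 had none matched here and were not analysed.

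The series compares 2 layers of the embryonic brain of ICR mice at embryonic day 16, both dissected by hand: the ventricular/subventricular zone (V/SVZ, where neural progenitors divide) and the cortical plate (CP, where newly made neurons settle). Each tissue gave 4 samples, and no genetic or drug treatment is named for either. Whether those 4 were separate embryos or litters is not given, so the p-values reflect variation among these 4 samples only, and that variation may be technical. In each sample 100 ng of total RNA was amplified, labelled with Cy3 and hybridised to a 1-colour Agilent array.

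Between 58.4% and 62.9% of 39429 gene probes were well above background per array, and no gene spot was saturated. Arrays correlated at r = 0.992 to 0.997 within a tissue and 0.880 to 0.897 between tissues, over 19189 genes. All V/SVZ arrays lay on 1 slide and all CP arrays on another, so slide and tissue cannot be told apart. The 7 RNA spike-ins used differed between tissues by -0.05 to 0.16 on the log2 scale. Tissue markers followed the labels of the scanner arrays. All 12 progenitor markers were higher in V/SVZ, led by Eomes, the transcription factor of intermediate progenitors, at 336-fold (191-fold under normexp background correction). Of 12 markers of postmitotic neurons, 11 were higher in CP, led by Nefm, a neurofilament subunit, at 36.0-fold (21.7-fold under normexp). The tissues are mixtures of cells, and more cells of a type and more RNA per cell cannot be told apart.

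Differences are given as V/SVZ minus CP on the log2 scale, so a negative value means higher in CP. This direction opposes the column names of the authors' deposited table, in which every column followed the same-numbered scanner array of the other tissue (r = 0.9996 to 0.9998). Signals are given in array units after setting the 75th percentile of every array to 2335. A gene is called where the adjusted p from limma, with Benjamini-Hochberg adjustment over 19232 genes, is under 0.05.

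Of the 57 Rabs with a probe, 51 could be tested, meaning that every array of V/SVZ, of CP or of both had a probe of the gene well above background. Of the 51, 49 were well above background on all 8 arrays, as were 17172 of all 19232 genes tested. The filter itself favours such genes, so the count is not particular to Rabs. The other 6 of the 57 were not tested. Rab20, Rab25 and Rab38 were above background on no array, Rab17 and Rab19 on 2 V/SVZ arrays each, and Rab42 on 1 V/SVZ and 2 CP arrays. Rab17 and Rab25 are known from epithelial cells and Rab38 from pigment cells.

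Of the 51, 31 were higher in CP, 13 were higher in V/SVZ and 7 were not called. Over all genes tested, 79.5% were called, 35% as higher in V/SVZ and 44.6% as higher in CP. The 86.3% of Rabs called is therefore close to the background share. Among called genes, 70.5% of the Rabs and 56.0% of all genes were higher in CP, and the median difference was -0.20 for the Rabs and -0.09 for all genes. The median absolute difference was 0.50 for the Rabs and 0.56 for all genes. No test of the Rabs as a list was made. When the arrays were scaled to their medians instead of the 75th percentile, 23 Rabs were called higher in CP and 14 higher in V/SVZ.

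Fitted differences of at least 2-fold were found for 9 Rabs in the direction of CP and 6 in that of V/SVZ, against 16.5% and 13.7% of all genes. The 9 were Rab3b, Rab15, Rab9b, Rab40b, Rab6b, Rab33a, Rab3c, Rab3a and Rab4a, and the 6 were Rab32, Rab29, Rab27a, Rab7b, Rab8b and Rab37. Under normexp correction, which adds an offset that narrows differences of dim probes, 4 in place of the 6 passed. Among Rabs well above background on all 8 arrays the counts were 9 and 4, since Rab27a was above background on no CP array and Rab32 on 1. Called without overlap between the arrays of the tissues were 44 of the 51 Rabs, or 86.3%, and 74.5% of all genes tested. The largest adjusted p among them was 0.0245, for Rab14, and the smallest was 8.83e-10, for Rab15.

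**Figure D1:**
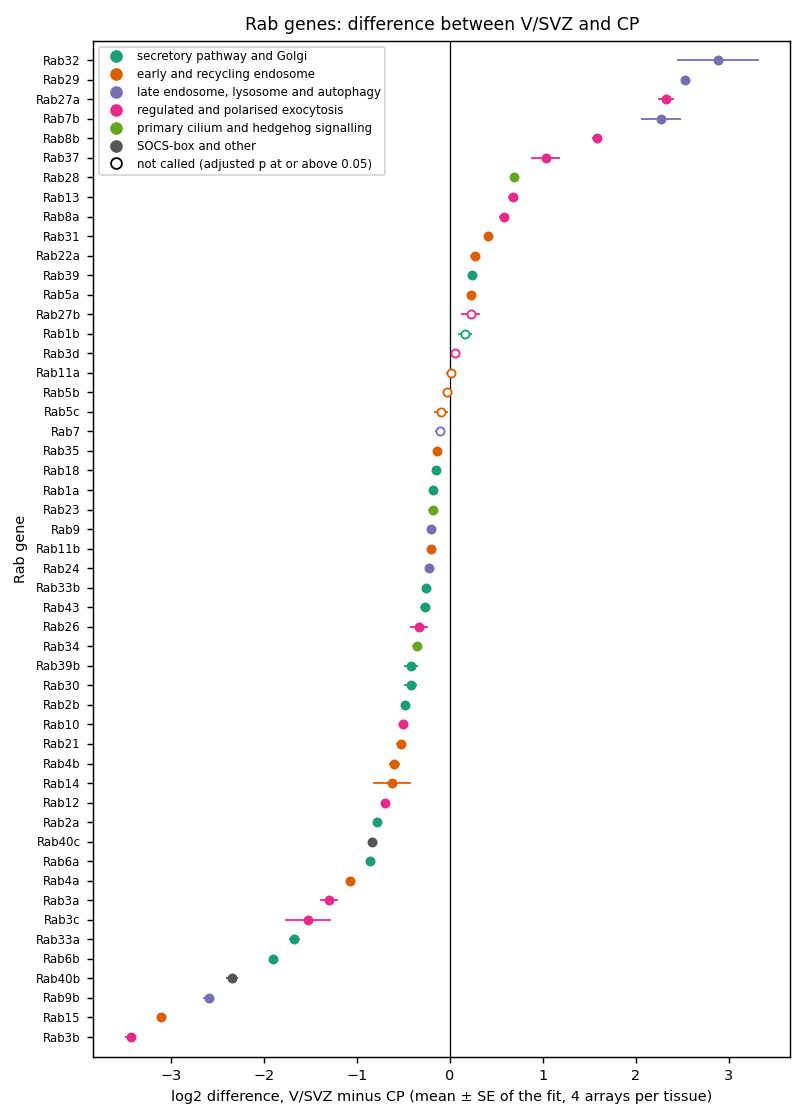
Difference between V/SVZ and CP (log2, V/SVZ minus CP, mean ± standard error of the limma fit, 4 arrays per tissue) for the 51 Rab genes tested, coloured by the compartment each is known for. Filled points are called and open points are not. Among Rabs well above background on all 8 arrays, Rab3b at -3.44 and Rab29 at 2.53 mark the ends. Rab32 and Rab27a, whose CP signal was mostly or wholly not above background, have fitted values only, and 7 open points lie near 0.

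The promoters of the genes with large differences were of unlike base composition. In 43 of the 51 tested Rabs RefSeq (build GRCm38.p6) gives 1 or more start sites in the table used, 55 in all. The 250 bases before the start held a median of 20 CpG dinucleotides per Rab gene, taking the richest start of a gene, and 6 over all 27025 genes. The sets are unlike: the Rabs are those tested on the arrays, while the 27025 genes were taken whether tested or not. The gap is therefore not shown to be particular to Rabs. The range over the Rabs was 5 to 42. The 12 Rabs with differences of at least 2-fold had a median of 12.5, and the other 31 had 21. These counts describe the reference sequence, and no test was made. The following 4 upstream sequences, chosen after their counts were seen, show a CpG-poor and a CpG-rich promoter of a gene higher in CP (Rab3b and Rab6b) and of a gene higher in V/SVZ (Rab32 and Rab8b). They are written 5′ to 3′ on the strand of the gene, and capitals mark each CG.
Rab3b, chr4:108878820-108879069, plus strand, 6 CpG: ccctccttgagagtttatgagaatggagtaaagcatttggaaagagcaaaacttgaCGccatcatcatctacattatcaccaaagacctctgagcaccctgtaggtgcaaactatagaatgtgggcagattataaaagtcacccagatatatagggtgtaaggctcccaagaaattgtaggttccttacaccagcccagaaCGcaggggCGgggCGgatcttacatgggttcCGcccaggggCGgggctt
Rab6b, chr9:103111824-103112073, plus strand, 40 CpG: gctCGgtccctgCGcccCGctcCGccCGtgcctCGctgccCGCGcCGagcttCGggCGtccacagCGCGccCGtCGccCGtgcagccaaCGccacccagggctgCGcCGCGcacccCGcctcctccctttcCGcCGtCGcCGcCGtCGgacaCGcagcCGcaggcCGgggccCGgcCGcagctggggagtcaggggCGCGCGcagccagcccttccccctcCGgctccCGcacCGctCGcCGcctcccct
Rab32, chr10:10558208-10558457, minus strand, 5 CpG: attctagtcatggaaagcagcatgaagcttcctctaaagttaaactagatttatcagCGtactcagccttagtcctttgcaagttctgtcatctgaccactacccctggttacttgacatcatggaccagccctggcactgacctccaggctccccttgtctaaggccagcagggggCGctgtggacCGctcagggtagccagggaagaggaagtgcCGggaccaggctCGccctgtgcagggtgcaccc
Rab8b, chr9:66919706-66919955, minus strand, 20 CpG: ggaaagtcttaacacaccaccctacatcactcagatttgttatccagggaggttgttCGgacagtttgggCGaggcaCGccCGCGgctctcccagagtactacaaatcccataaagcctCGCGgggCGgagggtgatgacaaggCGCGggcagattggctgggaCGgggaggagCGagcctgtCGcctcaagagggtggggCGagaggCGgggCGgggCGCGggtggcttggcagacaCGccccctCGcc

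The same 250 bases were searched on both strands for 7 short motifs. Here too the Rab promoters are of tested genes, while the shares over all promoters include genes not tested. The palindromic CLEAR element, which contains the E-box CACGTG and is known as the binding site of the lysosomal regulator TFEB, was in 2 of 55 Rab promoters (3.64%) and in 0.240% of all 32851 promoters. The E-box itself was in 7.27% of Rab promoters and 6.02% of all. The GC box GGCGGG was in 63.6% and 32.5%, the CCAAT box CCAAT in 43.6% and 33.8%, and the TATA box TATAAA in 5.45% and 12.4%. The cyclic AMP element TGACGTCA was in 1.82% and 1.55%, and CAGCACC, one part of the REST site, in 7.27% and 5.73%. A match describes letters and not a bound site. The CLEAR matches lay in Rab5a, 97 bases before its start, and in Rab21, 32 bases before its start, and capitals mark the element below.
Rab5a, chr17:53479112-53479171, plus strand: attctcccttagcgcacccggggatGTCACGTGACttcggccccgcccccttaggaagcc
Rab21, chr10:115315592-115315648, minus strand: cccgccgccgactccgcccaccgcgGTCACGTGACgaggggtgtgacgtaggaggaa
Both genes act on early endosomes, and their tissue differences ran in opposite directions: Rab5a was higher in V/SVZ (0.23 ± 0.043, SE, limma adjusted p = 0.00137) and Rab21 was higher in CP (-0.53 ± 0.051, limma adjusted p = 2.36e-05).

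The Rabs of the secretory pathway and the Golgi were mostly higher in CP. Of 13 tested, 11 were higher in CP, 1 was higher in V/SVZ and 1 was not called, with a median of -0.42. The shares to set beside this and each later compartment are those over all genes. Of all genes, 35% were higher in V/SVZ and 44.6% in CP, with a median of -0.09. No compartment was tested as a list. Rab6b, the brain-enriched relative of the Golgi retrograde transport factor Rab6a, had signals of 15369.5, 16229.6, 16166 and 15834 on the 4 V/SVZ arrays and 58025, 60783, 58569 and 60948 on the 4 CP arrays. Each CP value was well over that of any V/SVZ array, a 3.75-fold difference (-1.91 ± 0.035, SE, limma adjusted p = 1.60e-09). Rab33a, which marks post-Golgi vesicles on their way along growing axons, read 8721, 8380.4, 7480.1 and 7557 on the 4 V/SVZ arrays and 26454, 25303, 25412 and 25405 on the 4 CP arrays. All CP arrays were above all V/SVZ arrays, by 3.20-fold on average (-1.68 ± 0.057, limma adjusted p = 3.77e-08). Rab6a read 23098, 24118, 23153 and 22741 on the 4 V/SVZ arrays and 42979, 42646, 40756 and 42592 on the 4 CP arrays. The tissues did not overlap for Rab6a either, but the difference was smaller, at 1.81-fold (-0.86 ± 0.035, limma adjusted p = 1.08e-07).

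Rab2a and Rab2b, which act between the endoplasmic reticulum and the Golgi, differed by -0.79 and -0.48. Rab30, a Golgi protein, differed by -0.42. Rab43, which acts on traffic through the Golgi, differed by -0.27. Rab33b, the more widely expressed relative of Rab33a, differed by -0.25, Rab1a, which carries cargo from the endoplasmic reticulum to the Golgi, by -0.18, and Rab18, a protein of lipid droplets and the endoplasmic reticulum, by -0.15. The calls of Rab33b, Rab1a and Rab18 were lost under median scaling, where they differed by -0.17, -0.09 and -0.06 (limma adjusted p = 0.11, 0.396 and 0.504). Rab18 also lost its call under quantile normalization (-0.08, limma adjusted p = 0.108), and Rab33b with its probes averaged (-0.17, limma adjusted p = 0.376). Rab1b, the close relative of Rab1a, stood at 0.16 ± 0.076 and was not called (limma adjusted p = 0.0816), but it was called higher in V/SVZ under 5 alternatives, among them quantile normalization (0.22, limma adjusted p = 0.0213) and normexp correction (0.36, limma adjusted p = 0.00211).

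Rab39 was called higher in V/SVZ, and its relative Rab39b, a gene mutated in X-linked intellectual disability, went the other way. Rab39 read 327, 336, 328 and 331 on the 4 V/SVZ arrays and 284, 267, 277 and 292 on the 4 CP arrays (0.24 ± 0.037, limma adjusted p = 4.42e-04). Rab39b read 699.9, 691, 677 and 659 on the 4 V/SVZ arrays and 1020.0, 977, 863 and 801 on the 4 CP arrays (-0.42 ± 0.078, limma adjusted p = 0.0013). Both differences were small, without overlap between tissues. Under normexp background correction the difference of Rab39 was 0.08 (limma adjusted p = 0.0777).

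Of 13 Rabs of early and recycling endosomes, 7 were higher in CP, 3 were higher in V/SVZ and 3 were not called, with a median of -0.14. Rab15, which slows recycling from early endosomes and is known from neural tissue, had signals of 2785, 3100.3, 2705 and 2839 on the 4 V/SVZ arrays and 24599, 23888, 24343 and 25625 on the 4 CP arrays. Every CP array was several times brighter than every V/SVZ array, an 8.62-fold difference (-3.11 ± 0.050, limma adjusted p = 8.83e-10). Rab4a, which drives fast recycling to the plasma membrane, read 7724, 7641, 7393 and 8310.0 on the 4 V/SVZ arrays and 16518, 15736, 16608 and 16554 on the 4 CP arrays. The difference was 2.11-fold without overlap (-1.08 ± 0.045, limma adjusted p = 1.22e-07).

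Rab14, which links the Golgi with endosomes, was the only called Rab to lose its call when a single array was left out. It read 34608, 36475, 35312 and 18571 on the 4 V/SVZ arrays and 48401, 46109, 45481 and 45980.2 on the 4 CP arrays. The CP values were close together and above all V/SVZ values, and V/SVZ replicate 4 was far below the other V/SVZ arrays. The difference was -0.62 ± 0.21 (limma adjusted p = 0.0245). Without V/SVZ replicate 4 it was -0.39 (limma adjusted p = 8.21e-05), and without CP replicate 1 it was -0.60 and no longer called (limma adjusted p = 0.0552).

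The remaining endosomal Rabs moved by less than 2-fold. Rab4b, the relative of Rab4a, differed by -0.60. Rab11b, of the recycling endosome, differed by -0.20, and Rab35, which acts in fast recycling and cytokinesis, by -0.14. Both calls were lost under median scaling (limma adjusted p = 0.243 and 0.603) and under normexp correction (limma adjusted p = 0.353 and 0.206). In the direction of V/SVZ, Rab31 and Rab22a, close relatives that act between the Golgi and endosomes, differed by 0.41 and 0.26.

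The 3 core endosomal Rabs not called were Rab5b at -0.03 ± 0.038, Rab5c at -0.10 ± 0.075 and Rab11a at 0.01 ± 0.054 (limma adjusted p = 0.475, 0.271 and 0.911). Rab5b was called higher in CP under normexp correction and with its probes averaged, at -0.18 and -0.09 (limma adjusted p = 0.00682 and 0.0301). Rab5 proteins govern fusion of early endosomes, and Rab11a governs return of cargo from the recycling endosome.

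The late endosomal and lysosomal Rabs held large differences in both directions. Of 7 tested, 3 were higher in V/SVZ, 3 were higher in CP and 1 was not called. Their median absolute difference was 2.27, the value of Rab7b itself, beside 0.56 over all genes. Rab7b and Rab32 were dim in CP, and under normexp correction their differences were 1.43 and 1.37. Rab29, which recruits the kinase LRRK2 to the Golgi and lysosomes, had signals of 2084, 1981, 2019.6 and 2198 on the 4 V/SVZ arrays and 347, 365, 353 and 369.6 on the 4 CP arrays. All V/SVZ arrays were far above all CP arrays, a 5.77-fold difference (2.53 ± 0.044, limma adjusted p = 1.16e-09). Rab7b, a lysosomal Rab known from macrophages, read 288, 466, 333 and 448 on the 4 V/SVZ arrays and 70.5, 58.6, 99.9 and 89.4 on the 4 CP arrays. The tissues did not overlap, but arrays of 1 tissue varied more than for Rab29. The fold was 4.82 (2.27 ± 0.21, limma adjusted p = 2.12e-05) and 2.70 under normexp correction.

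Rab9b, a relative of the late endosome to Golgi factor Rab9, went the other way and read 1056, 1049, 1043 and 948 on the 4 V/SVZ arrays and 6631, 6355, 5728 and 6118 on the 4 CP arrays. It was 6.06-fold higher in CP, with no overlap (-2.60 ± 0.058, limma adjusted p = 3.76e-09). Rab32, which serves lysosome-related organelles and mitochondria, falls outside the rule for values on every array, since only 1 CP array was above background, and is given for its size. It read 180.0, 336, 304 and 368 on the 4 V/SVZ arrays and 16.7, 71.2, 40.0 and 47.6 on the 4 CP arrays. The V/SVZ values were all higher, and both tissues varied widely. The fitted fold was 7.39 (2.88 ± 0.44, limma adjusted p = 4.15e-04) and 2.58 under normexp correction.

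The other 3 of this group moved by less than 2-fold. Rab9 differed by -0.20 and Rab24, a Rab of autophagosomes, by -0.22, calls that were lost under median scaling (limma adjusted p = 0.269 and 0.0846). Rab7, the main Rab of late endosomes and lysosomes, stood at -0.11 ± 0.053 and was not called (limma adjusted p = 0.0926). It was called higher in CP under spike-in scaling, with array weights and without CP replicate 2 (limma adjusted p = 0.0315, 0.0364 and 0.0422).

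**Figure D2:**
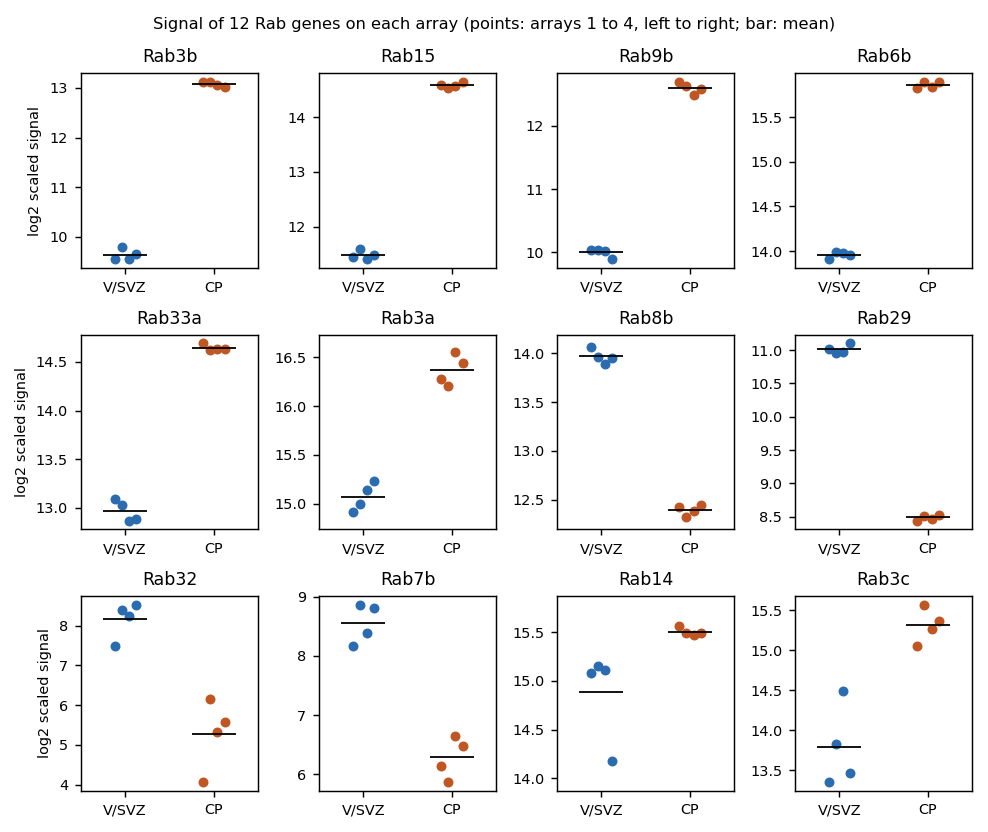
Scaled signal (log2, each panel with its own axis that does not start at 0) of 12 Rab genes on each of the 8 arrays, with arrays 1 to 4 from left to right in each tissue and a bar at the mean. The tissues do not overlap in any panel. V/SVZ replicate 4 of Rab14, at 18571 array units, lies far below the other V/SVZ arrays.

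The Rabs of regulated and polarised exocytosis were split: of 13 tested, 6 were higher in CP, 5 were higher in V/SVZ and 2 were not called. Rab3 proteins sit on synaptic vesicles and secretory granules. Rab3b, whose promoter is printed above, had the largest difference of any Rab, with signals of 749, 885, 753 and 804 on the 4 V/SVZ arrays and 8878, 8873, 8499 and 8309 on the 4 CP arrays. Every CP array exceeded every V/SVZ array by far, a 10.9-fold difference (-3.44 ± 0.060, limma adjusted p = 1.21e-09), which was larger in size than that of 95.1% of all genes tested. Rab3c read 10470.0, 14549, 23094 and 11302 on the 4 V/SVZ arrays and 34121, 48672, 39462 and 42213 on the 4 CP arrays. The V/SVZ values were uneven, with replicate 3 highest, yet below every CP value, and the fold was 2.89 (-1.53 ± 0.25, limma adjusted p = 5.89e-04).

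Rab3a, the most studied synaptic vesicle Rab, was 2.46-fold higher in CP (-1.30 ± 0.097, limma adjusted p = 4.80e-06). Rab3d, known from secretory granules outside the brain, stood at 0.06 ± 0.044 and was not called (limma adjusted p = 0.247). Rab12, which acts in receptor degradation and is a substrate of LRRK2, differed by -0.70.

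On the V/SVZ side, Rab8b, which with Rab8a directs vesicles to the plasma membrane and the cilium, had signals of 17169, 16019, 15185 and 15899 on the 4 V/SVZ arrays and 5479, 5116, 5342 and 5564 on the 4 CP arrays. All V/SVZ arrays were well above all CP arrays, by 2.99-fold (1.58 ± 0.048, limma adjusted p = 2.03e-08). Rab8a differed by 0.58 ± 0.048 in the same direction. Rab27a, which docks lysosome-related organelles and exosome-carrying bodies at the plasma membrane, was above background on all 4 V/SVZ arrays and on no CP array. It read 67.7, 63.3, 72.2 and 73.2 on the 4 V/SVZ arrays and 15.4, 12.4, 12.8 and 14.7 on the 4 CP arrays. On each CP array the measured value or the lowest signal above background, whichever was higher, was set against the V/SVZ mean. By this floored fold Rab27a was 1.54-fold higher in V/SVZ. It is not a strict lower bound, since probes not above background can read higher than that lowest signal. The limma adjusted p of 5.45e-08 for Rab27a belongs to the fit of the measured values, those below background included, and not to the floored fold. The floored fold holds for the processed signal only, and under normexp correction the fold of Rab27a was 1.30. Rab27b stood at 0.22 ± 0.10 and was not called (limma adjusted p = 0.0752). It was called higher in V/SVZ under median scaling, under quantile normalization and without CP replicate 2 (limma adjusted p = 0.0491, 0.0414 and 0.0254).

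Rab10 and Rab13, close relatives that serve delivery to the basolateral membrane and to tight junctions, were called in opposite directions. Rab10 read 17854, 17927, 16422 and 17473 on the 4 V/SVZ arrays and 25450.4, 24865, 23356 and 25131 on the 4 CP arrays (-0.50 ± 0.045, limma adjusted p = 1.38e-05). Rab13 read 797, 796, 719 and 814 on the 4 V/SVZ arrays and 485, 509.8, 465 and 497 on the 4 CP arrays (0.68 ± 0.051, limma adjusted p = 5.03e-06). By these probes Rab10 was higher on every CP array and Rab13 on every V/SVZ array, but a second, dimmer probe of Rab10 was called higher in V/SVZ, as described with the probes. Rab26 and Rab37, relatives on secretory granules, were also called in opposite directions. Rab26 read 178, 170.1, 163 and 157 on the 4 V/SVZ arrays and 186, 249, 219.8 and 193 on the 4 CP arrays (-0.34 ± 0.096, limma adjusted p = 0.012). Rab37 read 210.4, 178, 161 and 156 on the 4 V/SVZ arrays and 101, 93.7, 89.6 and 64.3 on the 4 CP arrays (1.03 ± 0.16, limma adjusted p = 3.86e-04). The V/SVZ values of Rab26 lay just below those of CP, and under normexp correction its difference was -0.15 and not called (limma adjusted p = 0.0921).

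The 3 Rabs known from the primary cilium and hedgehog signalling moved by less than 2-fold. Rab28, a ciliary Rab, read 3072, 2783, 2941 and 3068 on the 4 V/SVZ arrays and 1907, 1819, 1763 and 1873 on the 4 CP arrays and was higher in V/SVZ (0.69 ± 0.046, limma adjusted p = 2.24e-06). Rab34, which is needed for formation of cilia inside the cell, read 5950.4, 5724, 5980.0 and 5445 on the 4 V/SVZ arrays and 7184, 8097, 7237 and 7144 on the 4 CP arrays and was higher in CP (-0.36 ± 0.054, limma adjusted p = 3.86e-04). Rab23, a negative regulator of hedgehog signalling, read 715, 689, 704 and 719 on the 4 V/SVZ arrays and 851, 751, 835 and 783 on the 4 CP arrays (-0.19 ± 0.047, limma adjusted p = 0.00692). The tissues did not overlap for any of the 3, and the call of Rab23 was lost under median scaling (-0.10, limma adjusted p = 0.331). A second, dimmer probe of Rab23 gave a larger difference in the same direction, -0.60 (limma adjusted p over probes = 9.91e-06).

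Rab40 proteins carry a SOCS box and join a ubiquitin ligase. Both tested members were higher in CP. Rab40b read 82.2, 92.9, 86.0 and 81.0 on the 4 V/SVZ arrays and 466, 412, 461 and 406 on the 4 CP arrays, a 5.10-fold difference (-2.35 ± 0.067, limma adjusted p = 1.34e-08) that was 2.94-fold under normexp correction. Rab40c read 12479.8, 12048, 11546 and 12341 on the 4 V/SVZ arrays and 22155, 21505, 21899 and 20993 on the 4 CP arrays, a 1.79-fold difference (-0.84 ± 0.038, limma adjusted p = 2.05e-07). CP arrays were above V/SVZ arrays throughout.

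Markers of microglia and interneurons differed between the tissues. Of 10 microglia markers, 9 were higher in V/SVZ, led by P2ry12 at 5.22-fold, and Aif1 was not called. All 10 were well above background on every array. Their summed signal ran from 24569 to 35176 over the V/SVZ arrays and from 7314 to 10112 over the CP arrays. These values stand beside those of Rab32, Rab7b, Rab27a and Rab37, and their part in the result was not tested. Of 9 interneuron markers, 6 were higher in CP and 3 in V/SVZ, and Npy led in CP at 38.0-fold. Their summed signal was 24291 to 27602 in V/SVZ and 55120 to 64727 in CP, and without Npy 23600.0 to 27087 and 32630.2 to 36394. These interneuron values stand beside those of the Rabs higher in CP, and their part was not tested. The 2 main marker lists differed far more. The summed signal of the 12 postmitotic neuron markers was 255749 to 273251 in V/SVZ and 975343 to 1026220 in CP. That of the 12 progenitor markers was 561917 to 579263 in V/SVZ and 26725.5 to 30494 in CP. Their part in the Rab differences of either direction was not tested.

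Markers of other cells moved too. Of 10 endothelial and mural markers, 4 were higher in V/SVZ, led by Pdgfrb at 1.90-fold, and 6 were not called. Their summed signal was 20304 to 22507 in V/SVZ and 16451 to 18757 in CP. Of 7 oligodendrocyte lineage markers, 2 were higher in each tissue, with Mbp 2.98-fold higher in CP, and their summed signal was 5329 to 6220 in V/SVZ and 9385 to 9655 in CP. Of 8 tested markers of meninges, choroid plexus and blood, 5 were higher in V/SVZ. Lum was 4.24-fold higher in CP by the floored fold described for Rab27a, which is not a strict lower bound, and 3.65-fold under normexp correction. Of the same list, the choroid plexus markers Ttr and Kl were not well above background on any array. The part of these lists was not tested.

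Pairs of close relatives were compared for their tissue differences. For 20 measurable pairs of 22 listed, the log2 value of 1 gene minus that of the other was taken on each array, and its V/SVZ mean minus its CP mean was tested with a two-sided exact permutation test over the 8 arrays. The test compares tissue differences, not levels. In 19 of the 20 pairs the arrays of the tissues did not overlap and p was 0.0286, the smallest that 70 splits allow (0.0301 after Benjamini-Hochberg adjustment over the 20 pairs). With 79.5% of all genes called, many pairs of any genes could pass, and no share for other pairs was computed, so the count says nothing particular to relatives. Leaving out the pair with Rab27a, 18 of 19 passed and the median size was 1.002. The exception was Rab3c minus Rab3a at -0.23 (exact permutation p = 0.457), where the spread between arrays exceeded the difference. It rests on the brightest Rab3c probe: with a dimmer one, an alternative chosen after seeing the data, the gap was -1.13 (exact permutation p = 0.0286).

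The widest gaps, like most of the pairs listed, lay between genes of 1 number. Rab9b minus Rab9 was -2.40, Rab3b minus Rab3a was -2.14 and Rab7b minus Rab7 was 2.38. In each, a member with a large tissue difference was paired with one that moved less. Rab40c minus Rab40b was 1.51, Rab33b minus Rab33a was 1.42, Rab6b minus Rab6a was -1.05 and Rab8b minus Rab8a was 1.002. The sizes for Rab7b and Rab40b are less certain, since Rab7b was dim in CP and Rab40b in V/SVZ. Under normexp correction their own differences narrowed from 2.27 and -2.35 to 1.43 and -1.56. The 3 pairs called in opposite directions gave 1.18 for Rab13 minus Rab10 (0.50 with the other Rab10 probe), 1.37 for Rab37 minus Rab26 and -0.66 for Rab39b minus Rab39. The opposite calls of each pair depended on the processing or the probe. The other Rab10 probe was called higher in V/SVZ, as Rab13 was. Under normexp correction Rab26 and Rab39 were not called (limma adjusted p = 0.0921 and 0.0777).

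The smallest gap past the threshold was that of Rab31 minus Rab22a, at 0.15. Rab11b minus Rab11a was -0.21 and Rab4b minus Rab4a was 0.48. Under normexp correction these 3 pairs no longer passed (exact permutation, adjusted p = 0.0635, 0.0635 and 0.12). Some paralogues are similar in sequence, and whether a probe also binds a relative was not tested.

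**Figure D3:**
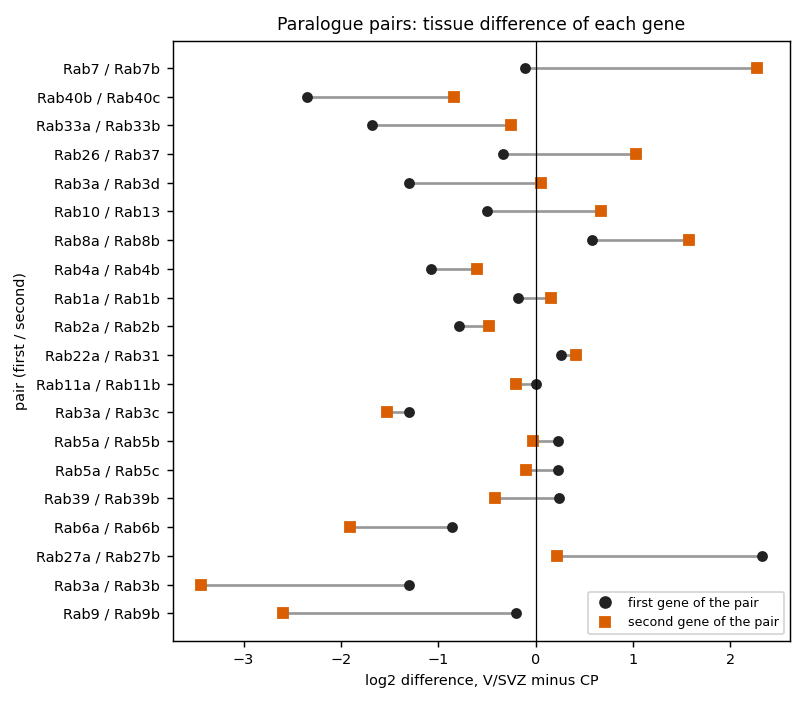
Tissue difference (log2, V/SVZ minus CP) of the first and the second gene of each of 20 pairs of related Rabs, joined by a line. Lines that cross 0 between called genes belong to Rab10 and Rab13, Rab26 and Rab37, and Rab39 and Rab39b. Under normexp correction Rab26 and Rab39 were not called, and the other Rab10 probe was called in the direction of Rab13. Long lines such as that of Rab9 and Rab9b join genes of unlike tissue difference. The length of the line of Rab27a and Rab27b is not measured, since Rab27a was above background on no CP array.

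Several probes could be compared for 17 Rabs. In 11 of them every tested probe was called in 1 direction, as for Rab8b, whose probes gave 1.58 and 1.60, and for Rab29, whose probes gave 2.53 and 2.40. The sizes did not always match: the probes of Rab3c gave -1.53, -1.53 and -2.43, and those of Rab43 gave -0.27 and -1.20. The probe of Rab3c at -2.43 read 4425, 5069.8, 4537 and 4341 on the V/SVZ arrays and 26356, 25607, 22295 and 24435 on the CP arrays, with less spread than the brightest. In 5 only some probes were called, and in 1 the calls were opposite. The values above come from the brightest tested probe of each gene.

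Rab10 was the gene with opposite calls. Its other probe read 2183, 2149, 2133 and 2469.6 on the V/SVZ arrays and 1989, 1883, 1914 and 2102 on the CP arrays, a difference of 0.18 (limma adjusted p over probes = 0.0251). The direction for Rab10 thus depends on the probe. The second probe of Rab27b gave -1.60 with 68.8, 42.6, 53.4 and 57.1 on the V/SVZ arrays and 192, 184, 139 and 154 on the CP arrays, while the brighter one was not called. The second probe of Rab3d gave -0.47. With the probes averaged, both genes were called higher in CP, at -0.69 for Rab27b and -0.20 for Rab3d (limma adjusted p = 0.00117 and 0.00415). The probes of Rab5b, Rab9 and Rab33b spanned 0.21, 0.13 and 0.18.

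**Figure D4:**
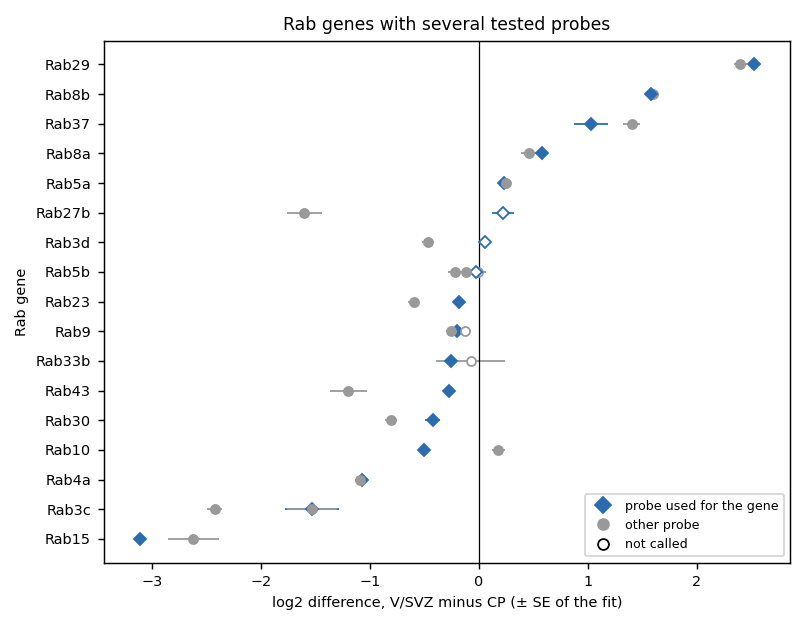
Difference (log2, V/SVZ minus CP, ± standard error) of every tested probe of the 17 Rabs with several, with the probe used for the gene as a diamond and open symbols for probes not called. The probes of Rab27b stand 1.82 apart and those of Rab10 on opposite sides of 0.

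The genes that act on Rabs, in lists of 182 genes of which 161 were tested, gave 84 higher in CP, 44 higher in V/SVZ and 33 not called. The share called was 79.5%, as over all genes. To set beside this and each list below, 44.6% of all genes were higher in CP and 35% in V/SVZ, with a median of -0.09. No list was tested as a set. Proteins that prenylate, extract or receive Rabs were evenly divided, with 6 of 14 higher in V/SVZ and 5 in CP. Rabac1, a membrane receptor for prenylated Rabs, differed by -0.97, and Rabif, a Rab-binding chaperone, by -0.87. With spike-in scaling 3 genes of this list, in place of 6, were higher in V/SVZ.

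Of 39 tested exchange factors, 17 were higher in CP, 12 were higher in V/SVZ and 10 were not called, and 11 were higher in CP under median scaling. In the main fit 74.4% of them were called, against 79.5% of all genes. Sh3bp5, an exchange factor for Rab11, was 3.66-fold higher in CP (-1.87, limma adjusted p = 5.13e-09), with signals of 1993, 2154, 2185 and 2208 on the V/SVZ arrays and 8144, 7783, 7596 and 7740.5 on the CP arrays. Dennd6b, a DENN domain protein, differed by -1.39. Against that direction, Rin2, an exchange factor for Rab5, was 5.21-fold higher in V/SVZ (2.38, limma adjusted p = 5.85e-05), with signals of 1265, 1554, 1319 and 1527 on the V/SVZ arrays and 162, 402, 247 and 335 on the CP arrays.

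Of 37 tested GTPase-activating proteins, 19 were higher in CP, 9 were higher in V/SVZ and 9 were not called. That is 75.7% called, against 79.5% of all genes. The 3 with the largest differences were Tbc1d31, a TBC domain protein of centriolar satellites, at 4.06, Tbc1d4, an insulin-regulated protein that acts on Rab10, at 3.40, and Tbc1d30, which acts on cilium formation, at -3.11 (limma adjusted p = 6.57e-10, 5.19e-09 and 2.93e-09). Tbc1d31 read 4121, 4179, 4225 and 4061 on the V/SVZ arrays and 227, 236, 274 and 256 on the CP arrays. Tbc1d4 read 4016, 3600.1, 3357 and 3206 on the V/SVZ arrays and 362, 343, 309.5 and 326 on the CP arrays, and it also stands in the list of effectors.

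Effectors are the proteins that loaded Rabs bind. Of 67 tested, 42 were higher in CP, 16 were higher in V/SVZ and 9 were not called. The median was -0.38, beside -0.09 over all genes, and 86.6% were called, beside 79.5% of all genes. Myo5b, the motor that moves Rab11 and Rab8 vesicles, was 8.85-fold higher in CP (-3.15, limma adjusted p = 1.24e-07), with signals of 149, 167, 115 and 173 on the V/SVZ arrays and 1434, 1196, 1365 and 1296 on the CP arrays. Against that direction, Kif20a, a mitotic kinesin first found through Rab6, was 37.6-fold higher in V/SVZ (5.23, limma adjusted p = 9.26e-09). Kif20a is known for cytokinesis, and the proliferation marker Mki67 was 36.4-fold higher in V/SVZ in the same arrays.

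Some effectors of the Rabs described above were looked up after their values were seen, so they are examples and do not stand for the list. Rph3a, which binds Rab3 on vesicles, differed by -2.40, and Rims2, a Rab3 effector of the active zone, by -0.47. Its relative Rims1, dim in V/SVZ, differed by -1.92, while Rims3 stood at 0.05 and was not called (limma adjusted p = 0.849). The 4 tested Rab11 family interacting proteins, Rab11fip2, Rab11fip3, Rab11fip4 and Rab11fip5, differed by -1.17, -0.65, -1.47 and -1.06, all higher in CP, while Rab11a itself was not called. Appl1 and Appl2, Rab5 effectors on early endosomes, were called in opposite directions at -0.80 and 1.63.

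Of 5 tested Rab-like GTPases, 2 were higher in V/SVZ, 1 was higher in CP and 2 were not called. Rabl3 differed by 0.85, Ift27, a Rab-like subunit of the ciliary transport train, by 0.66, and Rabl6 by -0.18. The call of Rabl6 was lost under median scaling (limma adjusted p = 0.294).

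**Figure D5:**
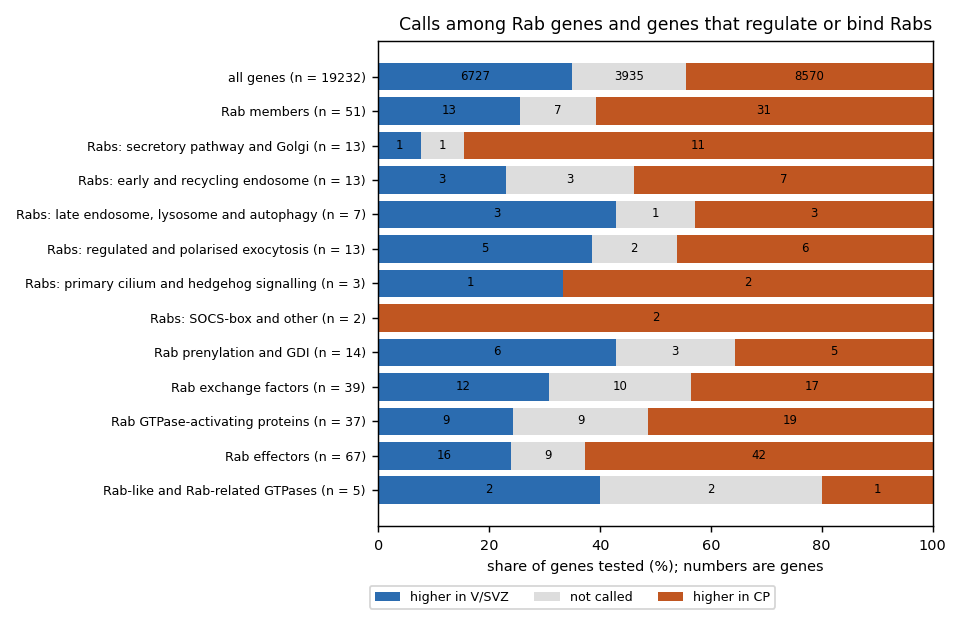
Share of tested genes that were higher in V/SVZ, not called or higher in CP (limma adjusted p under 0.05) for all 19232 genes, the 51 Rabs, the Rabs of each compartment and the lists of genes that act on Rabs. Numbers in the bars are genes. Of the 13 Golgi Rabs, 11 lie in the part for CP, as do 8570 of all 19232 genes.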

How the data were processed

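Per the labels' protocols, amplified Cy3-labelled RNA was hybridised to 1-colour arrays. Per the file headers, the deposited intensity values were made with Agilent Feature Extraction 10.7.1.1 as a background-subtracted processed signal per spot. A second file, a log2 table with 17185 rows deposited by the authors, was centred on a median of 0 in 99.8% of rows (its log2 base and centring were inferred from the arrays, while its filter and scaling stay unknown) and served as an alternative with its direction turned.

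Control spots and outlier spots (142 to 258 per array) were left out, and spots of a probe were averaged. Each array was scaled by its 75th percentile of processed signal, and log2 values were fitted by tissue in limma 3.58.1 under R 4.3.3 (lmFit, then eBayes). Their p-values were Benjamini-Hochberg adjusted over 19232 genes at a threshold of 0.05. A probe was tested (23860 were) if well above background on all 4 arrays of a tissue and valued on at least 3 of each. Accessions were matched to symbols through RefSeq (GRCm38.p6), which named 26761 of 39429 probes. The array headers name mm9, so coordinates are given for RefSeq promoters only. The brightest tested probe represents a gene. The fit was tested on simulated data. No value column was left unmapped (0).

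The members, lists and rules were chosen with earlier results of these data known. Every Rab is named, and values on each array are given for the 3 called members of each compartment with the largest difference that were above background on all 8 arrays and for pairs called in opposite directions. From each regulator list the 3 largest such genes and the called gene farthest from the list's main direction are named, and from each marker list the largest called gene. One gene that this rule names is not reported here. Arrays give no read depth, and 4 per tissue limit the precision. Alternatives were other scalings, normexp with an offset of 50, probe choices, filters, variance models, a replicate block, the deposited table and leaving out each array.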

Additional observations from a re-analysis of the deposited data

Results flagged for a closer look

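For each of the 51 tested Rabs, the 4 arrays of each tissue were checked for a value far from the other 3, and 6 of 102 groups met Dixon's limit on the gap relative to the range. Chance alone flags about 1 in 20 groups. Rab14 read 18571 on V/SVZ replicate 4, against 34608 to 36475 on the other V/SVZ arrays. Rab9b read 948 on the same array, against 1043 to 1056. Rab4a read 15736 on CP replicate 2, against 16518 to 16608 on the other CP arrays, and Rab34 read 8097 there, against 7144 to 7237. Rab6a read 40756 on CP replicate 3, against 42592 to 42979. Rab33a read 26454 on CP replicate 1, against 25303 to 25412. The gap was large relative to the level for Rab14 only, and the difference of Rab14 without that array is given with its values.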

How the results depend on the processing

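Of the 51 Rabs, 43 had a value under all 20 alternatives, and 28 of these, 26 of them called, kept their direction and their side of the threshold in every one. Of all 51, 16 changed in at least 1, and the others kept both wherever they had a value. Rab27a and Rab32 have none among genes above background on all 8 arrays, nor Rab10 with genes of opposite probes left out. Averaging the probes of a gene turned the direction of Rab3d to -0.20 and of Rab27b to -0.69, since their second probes differ. In the authors' deposited table, which holds 45 of the tested Rabs, 3 in place of 6 exceeded CP by 2-fold or more in V/SVZ. Leaving out 1 array at a time gave 30 to 32 Rabs higher in CP, 13 to 14 higher in V/SVZ, and 5 to 6 of these by 2-fold or more. Median scaling moved the median of all genes from -0.09 to -0.005, and the calls it ended are given with the genes. Same-numbered arrays deviated together at correlations of 0.34, 0.31, 0.098 and 0.20, against -0.39 to 0.21 for differently numbered arrays of the 2 tissues. They were not treated as paired, since no label says that equal numbers share an animal. Whether they share an origin was not tested. With the replicate number as a block the counts were again 13 and 31 and no call of a Rab changed, and the genes that act on Rabs gave 43 and 84. A paired exact test over 4 pairs of arrays cannot go below p = 0.125. Leaving out an array gives 3 against 4, where the exact test of a pair of relatives cannot go below 0.0571. Of Rab-like GTPases, 0 were higher in CP under median scaling and 2 under normexp correction, under the replicate block or without V/SVZ replicate 2, against 1, and 1 in place of 2 was higher in V/SVZ in the deposited table. The precision rests on 4 arrays per tissue, and values near background, as for Rab27a and Rab32, are the least certain.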
